A study of Mus musculus with 72 samples.

Results

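Cultured mouse ovarian follicles that received FSH24 at 1 ng/ml for 24 h were compared with untreated follicles. FSH24 is the fully glycosylated form of follicle-stimulating hormone (FSH), and FSH21, the other form in the study, is the hypoglycosylated form. The libraries were taken by their labels alone. They were the 3 libraries of FSH24 at 1 ng/ml that carry the numbers 1, 5 and 6 and the 3 untreated libraries with the same numbers, which made 6 of the 18 libraries of the series and 24 of its 72 lane samples, since each library was run on 4 lanes and the authors' table holds 1 column per library. The other groups used below were FSH21 at 1 ng/ml (numbers 1, 5 and 6), which shares those untreated libraries, and FSH24 at 10 ng/ml with 3 untreated libraries of its own (numbers 2, 3 and 4). The follicles were early secondary follicles, described by the submitters as 3 biological replicates per treatment. All groups, the untreated ones included, were held at 37 °C and 5% CO2 in α-MEM-Glutamax medium that contained 3 mg/ml of bovine serum albumin, 1 mg/ml of fetuin and 0.1% insulin-transferrin-selenium. The sources used here do not give the mouse strain, the age of the animals or how many follicles went into a library.

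FSH acts on granulosa cells, the somatic cells that surround the oocyte, through the FSH receptor, a G protein-coupled receptor that raises cyclic AMP and activates protein kinase A. In growing follicles this signal is known to raise genes of steroid synthesis and growth, among them Kitl, which encodes the KIT ligand that granulosa cells present to the KIT receptor of the oocyte. The sugar chains of the FSH beta subunit are known to change how the hormone binds its receptor, and the forms with fewer chains are generally the more active ones in cell assays.

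The 6 libraries held 19042300 to 22509800 counts each, and the lowest of the 18 held 17513000. Levels below are CPM, counts scaled to library size after TMM normalization, and library values are given in the order of the numbers 1, 5 and 6, or 2, 3 and 4. Markers of the labelled tissue were present. The summed level of 25 oocyte markers was 7519 to 8956 CPM in the 6 libraries, and that of 14 granulosa markers was 5535 to 7209 CPM. Lists of other ovarian cells were also high. The 13 stroma and smooth muscle markers summed to 4524 to 5427 CPM, and the 13 theca and steroidogenic markers to 1870 to 2199 CPM. Markers of immune cells summed to at most 5.46 CPM and those of red blood cells to at most 0.515 CPM, with 3 of the 6 red blood cell markers at 0 in all 6 libraries. One library stood apart. FSH24 library 6 held markers of the ovarian surface epithelium: Upk3b, a plaque protein of the mesothelium, was at 0.259, 0.743 and 19.5 CPM with FSH24 against 0.432, 0.796 and 0.638 CPM in the untreated libraries, and Krt19, a keratin of simple epithelia, was at 0, 0 and 11.1 against 0, 0 and 0.547 CPM. The 9 markers of that list summed to 46.7, 51.9 and 85.7 CPM with FSH24 and 43.8, 48.3 and 40.1 CPM without. The sum was not particular to library 6, since it was 58.8 to 64.8 CPM with FSH21 at 1 ng/ml and 74.1 to 84.5 CPM with FSH24 at 10 ng/ml. Single markers set library 6 apart. Upk3b and Krt19 were at 0.428, 0.495 and 0.47 and 0.143, 0.198 and 0.047 CPM with FSH24 at 10 ng/ml and at 3.62 and 2.06 CPM in FSH21 library 6. Krt7, Muc16, Msln and Upk1b of the same list were also highest in FSH24 library 6, at 5.24, 3.07, 1.73 and 1.42 CPM. Library 6 also had the lowest granulosa marker sum of the FSH24 libraries (7209, 7187 and 5535 CPM, against 7201, 6783 and 6286 CPM in the untreated ones). Values without library 6 are given where leaving it out turned or moved a median, and the part of these cells in any result was not tested. In whole follicles, fewer cells of a type and less RNA per cell cannot be told apart.

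No gene passed the test between FSH24 at 1 ng/ml and untreated follicles. Of 18727 genes tested, 0 (0%) had an adjusted p under 0.05 by edgeR's quasi-likelihood test, and the lowest adjusted p was 0.815. DESeq2 called 1 gene, Gm10240, which was at 0 in all 3 FSH24 libraries and is described last, and gave 1096 genes at an unadjusted p under 0.05. At an unadjusted p under 0.05 there were 1119 genes (5.98%), 605 higher (3.23%) and 514 lower (2.74%) with FSH24. Without library 6 the count of called genes was again 0, with 1323 genes at an unadjusted p under 0.05. The same fit applied to FSH24 at 10 ng/ml called 1577 genes (8.42%), 959 higher and 618 lower.

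**Figure D1:**
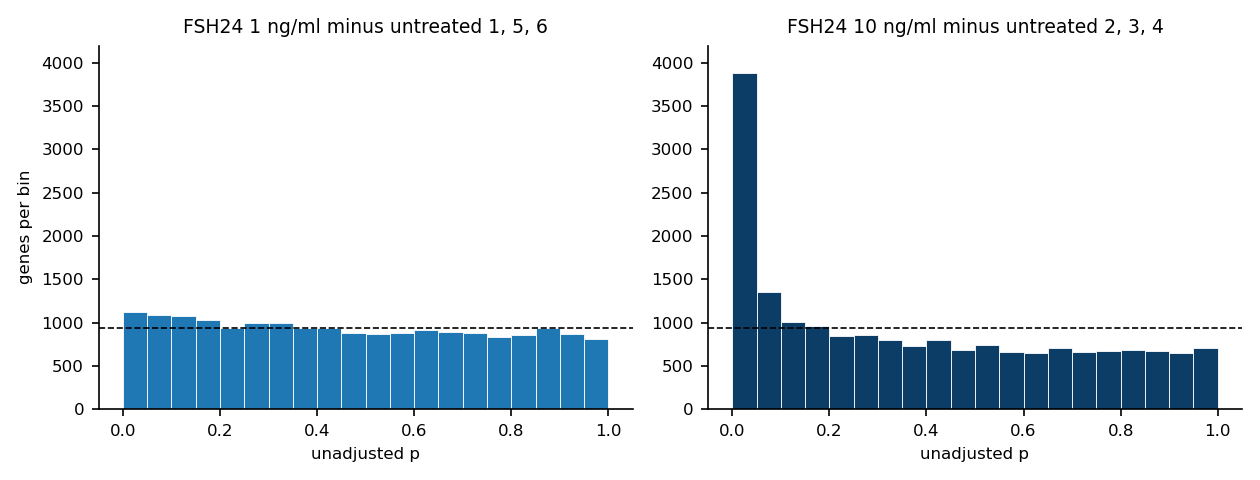
Number of genes (vertical axis) in each of 20 bins of the unadjusted edgeR p (horizontal axis) for FSH24 at 1 ng/ml (left) and at 10 ng/ml (right), each against its own untreated libraries; the dashed line marks the mean of 936.4 genes per bin. The lowest bin holds 1119 genes at 1 ng/ml and 3886 at 10 ng/ml.

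The distribution of p-values at 1 ng/ml was close to even. Its bins ran from 809 to 1119 genes, while at 10 ng/ml the lowest bin held 3886. Effects above a given size can be bounded from the intervals of the fit. The 95% interval of the log2 change reached 0.19 to either side of the estimate in the median gene at 10 CPM or more (10694 genes), and 1.29 in the median gene under 1 CPM (3515 genes). For 13833 of the 18727 genes (73.9%) the whole interval lay within 2-fold in either direction. In 993 genes all 3 FSH24 libraries lay above all 3 untreated libraries and in 941 they lay below, together 10.3% of the genes tested, against 24.5% at 10 ng/ml.

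The genes closest to a call are named here without a direction being claimed for them. The 24 genes at 1 CPM or more with the lowest p had unadjusted p-values of 0.000638 to 0.0018 and an adjusted p of 0.815 each. Of these, 18 had higher and 6 had lower estimates with FSH24, and 21 had a log2 change under 0.5 in size. Vdac3, a channel of the outer mitochondrial membrane, was at 152, 152 and 144 CPM in untreated and 176, 184 and 166 CPM in FSH24 libraries, a log2 change of 0.23 (SE 0.06, p = 0.000723). Ndufv2, a subunit of respiratory complex I, was at 60.0, 51.3 and 50.2 CPM in untreated libraries and 65.1, 70.3 and 60.8 CPM with FSH24. The 2 groups did not overlap in either gene, though the untreated libraries 2, 3 and 4 held 177, 158 and 166 CPM of Vdac3, overlapping its FSH24 values. Among the lower estimates, Has3, a hyaluronan synthase, was at 28.4, 35.9 and 35.7 CPM in untreated and 27.3, 25.3 and 23.2 CPM in FSH24 libraries, a log2 change of -0.40 (SE 0.10, p = 0.000909). Slc12a2, a sodium-potassium-chloride cotransporter, was at 59.7, 60.9 and 61.1 CPM in untreated libraries and 52.9, 53.9 and 51.8 CPM with FSH24. Both were lower in each of the 3 FSH24 libraries than in any of the 3 untreated ones. Efna2, an ephrin ligand, was at 12.8, 12.9 and 14 CPM in untreated libraries and 17.1, 16.8 and 17.3 CPM with FSH24 (p = 0.00161), but the untreated libraries 2, 3 and 4 were at 17.5, 17.2 and 16.4 CPM. That pattern was common among these genes. In 15 of the 24, all 3 untreated libraries numbered 2, 3 and 4 lay on the same side of the untreated libraries 1, 5 and 6 as the FSH24 libraries did, and in 11 of the 24 the FSH24 values overlapped those of the other untreated libraries. The 24 genes were chosen by their p against the untreated libraries 1, 5 and 6. Among the 993 genes with all FSH24 libraries above those untreated ones, the untreated libraries 2, 3 and 4 lay on the FSH24 side in 228 (23%). Among the 941 genes with all FSH24 libraries below, they did so in 249 (26.5%). Over all 18727 genes, the untreated libraries 2, 3 and 4 lay wholly above the other 3 untreated libraries in 5.3% and wholly below them in 5.67%. The part of this difference between control sets in the estimates was not tested. With all 6 untreated libraries as 1 control group, 0 genes were called and 1115 had an unadjusted p under 0.05. Against these 6 the log2 change was 0.17 for Efna2 and 0.15 for Vdac3.

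Kitl did not differ between FSH24 at 1 ng/ml and untreated follicles beyond the spread of the libraries. It was at 157, 155 and 160.2 CPM in the untreated libraries and at 169, 156 and 157 CPM with FSH24. The 2 groups overlapped, the log2 change was 0.03 and its 95% interval ran from -0.13 to 0.19. In the same numbers, FSH21 at 1 ng/ml gave 233, 249.5 and 228 CPM, above every untreated and every FSH24 library. FSH24 at 10 ng/ml gave 369, 375 and 427 CPM against 121, 144 and 141 CPM in its own untreated libraries, a log2 rise of 1.53 (SE 0.08, adjusted p = 3.01e-09). Kitl (ENSMUSG00000019966) lies on the plus strand at chr10:100015630-100100416 in GENCODE M21.

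The direct comparison of FSH24 with FSH21 at 1 ng/ml, which uses no untreated library, called 2 of 18727 genes (0.0107%), both lower with FSH24. FSH21 and FSH24 differ in the glycosylation of the beta subunit of the hormone and were given at the same dose for the same time. Kitl was lower with FSH24 by a log2 difference of -0.56 (SE 0.08, 95% interval -0.72 to -0.39, adjusted p = 0.0211). Cbfa2t3, a transcriptional corepressor of the ETO family, was at 52.4, 45 and 50.4 CPM with FSH24 and 91.3, 73.1 and 71.1 CPM with FSH21, with no overlap. Its log2 difference was -0.67 (SE 0.10, 95% interval -0.88 to -0.46, adjusted p = 0.0215). Untreated libraries held 51.4, 59 and 47.4 CPM of Cbfa2t3, which overlapped the FSH24 values (log2 change -0.09, 95% interval -0.30 to 0.11). Both calls depended on single libraries. Without FSH24 library 5 the adjusted p was 0.176 for either gene, without FSH24 library 6 it was 0.0995 for either, without FSH21 library 1 it was 0.104 for Kitl and 0.169 for Cbfa2t3, and without FSH21 library 5 it was 0.128 and 0.0814. Each gene was called in 7 of the 11 alternatives computed. With the library numbers as a block over all 18 libraries, 177 genes were called. The edgeR adjusted p was then 0.000422 for Kitl and 0.00365 for Cbfa2t3. DESeq2 called 204 genes, with adjusted p-values of 5.73e-08 and 2.32e-06 for these 2. The log2 difference of Kitl stayed between -0.59 and -0.52, and that of Cbfa2t3 between -0.73 and -0.55, in the 11 alternatives. At an unadjusted p under 0.05 there were 1770 genes in this comparison, 839 higher and 931 lower with FSH24.

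The response to FSH24 was then compared between the doses, each dose against its own untreated libraries. The difference of the log2 changes passed the test in 458 of 18727 genes (2.45%), 226 with the more positive (1.21%) and 232 with the more negative change (1.24%) at 10 ng/ml. Of these, 445 were also called at 10 ng/ml. Over the 458 genes the median size of the log2 change was 0.11 at 1 ng/ml and 0.59 at 10 ng/ml. The 458 were chosen by the gap between these 2 changes, and over all genes tested the median size at 1 ng/ml was also 0.11. The count of genes called for the dose difference was 348 without FSH24 library 6, and 291 without FSH24 library 5. The dose and the set of numbers (1, 5 and 6 against 2, 3 and 4) cannot be told apart in this design beyond what each set's own untreated libraries correct.

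Kitl had the lowest p of all genes for this difference (SE 0.11, with a log2 difference of 1.41 to 1.53 over the alternatives computed, adjusted p = 1.23e-06). Cbfa2t3 was at 51.1, 52.6 and 49.3 CPM in the untreated libraries of the higher dose and 96.7, 112 and 120.2 CPM with FSH24 at 10 ng/ml, and its dose difference was 1.20 (SE 0.14, adjusted p = 0.00028). Neither gene showed at 1 ng/ml the separation it had at 10 ng/ml. Itga6 and Ank3 were picked for description after their values were seen. Itga6, the integrin alpha-6 subunit that binds laminin, was at 734, 749 and 608 CPM in untreated libraries and 799.6, 719.9 and 696 CPM with FSH24 at 1 ng/ml, which overlapped, and at 758, 632 and 686 and 1702, 1646 and 1814 CPM at the higher dose, which did not (dose difference 1.23, adjusted p = 0.00028).

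Sema3g, Cnnm1 and Ank3 fell at 10 ng/ml. Sema3g, a secreted class 3 semaphorin, was at 147, 108 and 107 CPM in untreated libraries and 102, 131 and 90.3 CPM with FSH24 at 1 ng/ml. The groups overlapped, with a log2 change of -0.17 and a 95% interval of -0.55 to 0.22. At 10 ng/ml Sema3g was at 21.9, 27.4 and 18 CPM against 125, 95.8 and 114 CPM, a log2 change of -2.31 (SE 0.19, adjusted p = 5.66e-06). Cnnm1, a cyclin M family membrane protein, was at 27.1, 24.1 and 23.5 CPM in untreated libraries and 23, 23.7 and 26.2 CPM with FSH24 at 1 ng/ml, and at 27.8, 24.7 and 29.1 and 5.51, 8.72 and 6.49 CPM at the higher dose. Its dose difference was -1.95 (SE 0.21, adjusted p = 0.00018). Ank3, which encodes ankyrin-G, a link between membrane proteins and the spectrin skeleton, was at 201, 186 and 230.4 CPM in untreated libraries and 185, 178 and 180.1 CPM with FSH24 at 1 ng/ml, all 3 below the untreated values, with an unadjusted p of 0.0351 and an adjusted p of 0.815. At 10 ng/ml its log2 change was -1.27 (SE 0.08, adjusted p = 7.24e-08). Kitl, Cbfa2t3, Itga6, Sema3g, Cnnm1 and Ank3 kept their call for the dose difference in all 17 alternatives computed for it.

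**Figure D2:**
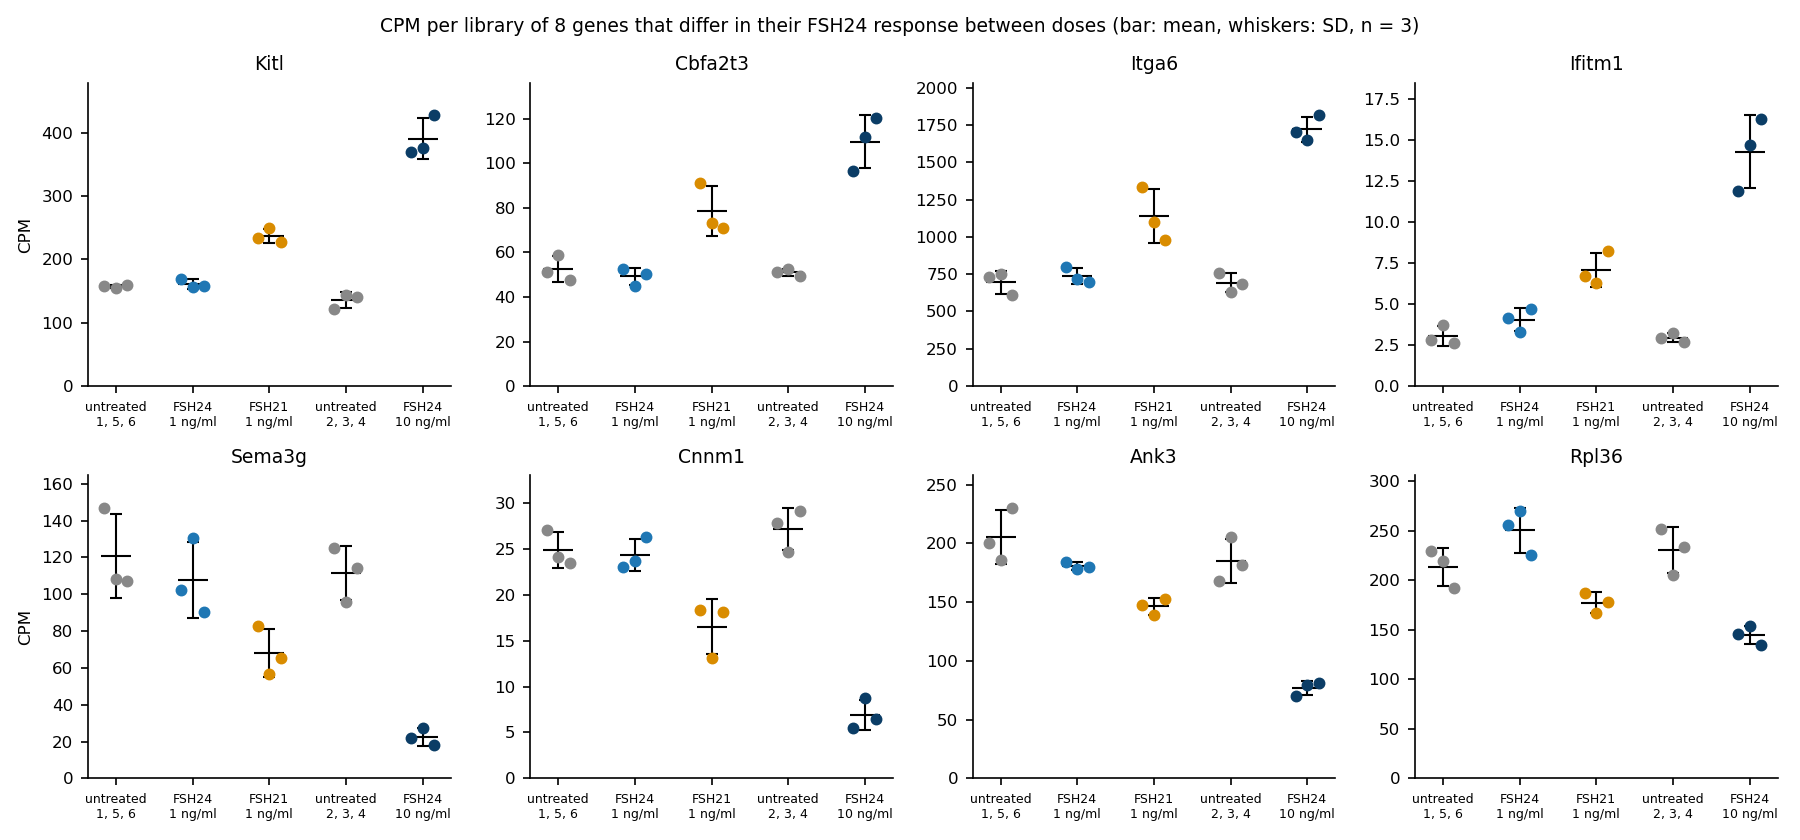
CPM per library (vertical axis, linear from 0) of 8 genes called for the dose difference, in the untreated libraries 1, 5 and 6, FSH24 at 1 ng/ml, FSH21 at 1 ng/ml, the untreated libraries 2, 3 and 4 and FSH24 at 10 ng/ml; points are libraries, the bar is the mean and the whiskers the SD (n = 3). In Kitl, the FSH24 libraries at 1 ng/ml (169, 156 and 157 CPM) sit among the untreated ones (157, 155 and 160.2 CPM), below those of FSH21 (233, 249.5 and 228 CPM).

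The promoters of Cbfa2t3 and Cnnm1 are shown because they belong to the genes that set the doses apart and hold the core of the cyclic AMP response element (CRE), the sequence bound by CREB, a substrate of protein kinase A. Each is the 250 bases before the start of the gene in RefSeq (GRCm38.p6), written 5′ to 3′ on the strand of the gene, with the core TGACG in capitals. The Cbfa2t3 stretch is chr8:122699110-122699359 on the minus strand and the Cnnm1 stretch is chr19:43440163-43440412 on the plus strand. In GENCODE M21 each stretch overlaps an exon of an antisense transcript of the opposite strand, Gm10612 and Gm47936, and no exon of the gene itself.
Cbfa2t3: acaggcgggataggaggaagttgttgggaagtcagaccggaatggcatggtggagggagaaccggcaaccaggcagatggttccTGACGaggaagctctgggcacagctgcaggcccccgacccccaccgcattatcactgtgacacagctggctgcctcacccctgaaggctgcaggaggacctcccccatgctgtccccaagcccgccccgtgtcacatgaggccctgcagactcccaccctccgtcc
Cnnm1: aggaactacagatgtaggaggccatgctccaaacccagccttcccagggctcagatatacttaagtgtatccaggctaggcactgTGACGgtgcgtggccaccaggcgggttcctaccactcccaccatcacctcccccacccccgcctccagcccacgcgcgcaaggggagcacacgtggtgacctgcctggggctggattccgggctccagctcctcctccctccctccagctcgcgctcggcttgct

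The core begins at base 85 of the Cbfa2t3 stretch and at base 86 of the Cnnm1 stretch. Windows of 300 bases (250 before and 50 after the start) were searched for TGACG on either strand, also where it is a part of the full site. It was found in 57 of 181 genes with the more positive change at 10 ng/ml (31.5%) and in 60 of 156 with the more negative change (38.5%), of the 226 and 232 genes. The share was 32.5% in 12619 tested genes with a listed promoter and 23% in all 27025 listed genes. The full CRE, TGACGTCA, was found in 3 of the 181 (1.66%) and 8 of the 156 (5.13%), against 3.24% of tested genes. TCAAGGTCA, bound by the orphan receptors NR5A1 and NR5A2, was found in 0 of both, against 0.357%. The listed promoter of Kitl held none of the 3. These counts describe letters in these windows and nothing more.

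The genes called with FSH24 at 10 ng/ml were followed at 1 ng/ml, where they are independent of the control libraries that chose them. Of the 959 genes higher at 10 ng/ml (5.12% of those tested), 588 were above 0 at 1 ng/ml, or 61.3% (95% interval 58.1% to 64.4%, exact binomial over genes, which are not independent), against 50.4% of all genes. Their median log2 change was 0.03 at 1 ng/ml and 0.47 at 10 ng/ml. Of the 618 lower genes (3.3%), 312 were below 0 at 1 ng/ml, or 50.5% (46.5% to 54.5%), against 49.6% of all genes, with medians of -0.00 and -0.50. Of the 1577 genes, 0 were called at 1 ng/ml. The shares moved with single libraries. Leaving out 1 of the 6 libraries gave 56.3% to 66.6% for the higher and 42.9% to 60.8% for the lower genes, and without FSH24 library 6 they were 65.0% and 42.9%.

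The same shares were read among the strongest genes, with no test of their difference from the rest. Of 160 genes at least 2-fold higher at 10 ng/ml, 115 were above 0 at 1 ng/ml (71.9%), with a median of 0.17 against 1.33 at 10 ng/ml. Of 85 genes at least 2-fold lower, 54 were below 0 (63.5%), with medians of -0.10 and -1.37. For 116 of the 160 and 69 of the 85 the 95% interval at 1 ng/ml left out a change of 2-fold or more in that direction. Over all 18727 genes it left out such a rise in 15505 and such a fall in 15537. Neither set of strong genes exceeded the share over all genes. The 10 genes at 1 CPM or more with the largest rises at 10 ng/ml had log2 changes of -0.82 to 1.89 at 1 ng/ml, 7 of them above 0. The 10 with the largest falls had log2 changes of -0.89 to -0.03, all 10 below 0.

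**Figure D3:**
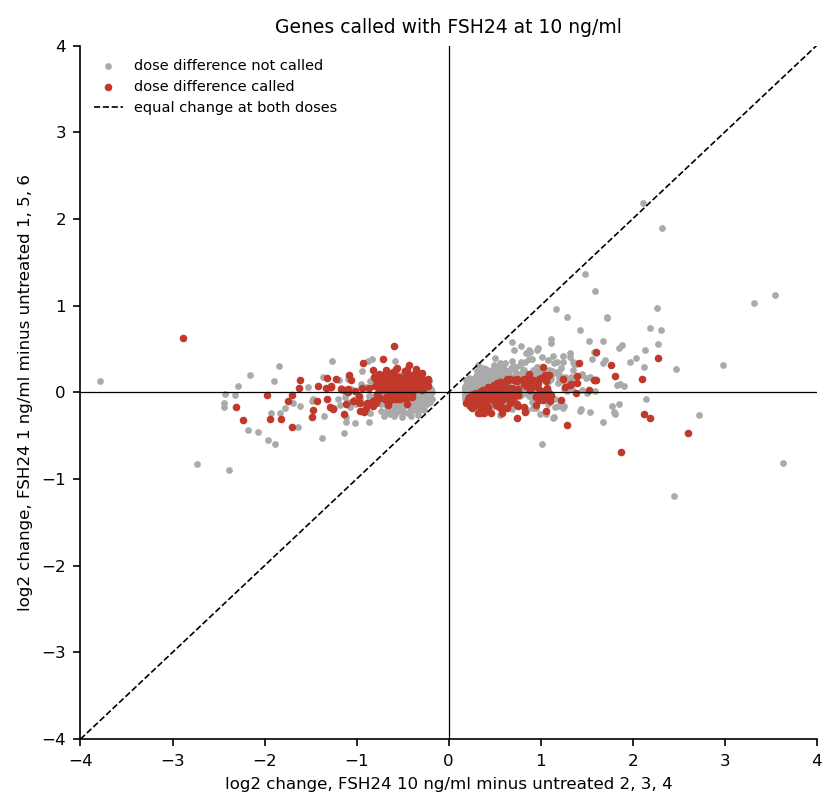
Log2 change of the 1577 genes called with FSH24 at 10 ng/ml (horizontal axis) against their log2 change with FSH24 at 1 ng/ml (vertical axis), each against its own untreated libraries; red points are called for the dose difference, the dashed line marks equal changes, and 8 genes lie outside the axes. The points spread along the horizontal axis and stay near 0 on the vertical one, with medians at 1 ng/ml of 0.03 for the higher and -0.00 for the lower genes.

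Among the largest rises, Ifitm1, an interferon-induced membrane protein, was at 2.78, 3.75 and 2.65 CPM in untreated libraries and 4.14, 3.3 and 4.67 CPM with FSH24 at 1 ng/ml, overlapping, and at 2.95, 3.21 and 2.67 and 11.9, 14.7 and 16.3 CPM at 10 ng/ml. Rhox8, a homeobox gene of the reproductive Rhox cluster, was at 1.63, 1.78 and 1 CPM and 2.9, 1.49 and 2.89 CPM at 1 ng/ml, with a log2 change of 0.72 (SE 0.38, p = 0.0787) against 2.31 at 10 ng/ml. Pnlip, a pancreatic-type lipase, was low throughout. It was at 0.048, 0.281 and 0.137 CPM in untreated and 0.518, 0.325 and 0.934 CPM in FSH24 libraries at 1 ng/ml, which did not overlap (log2 change 1.89, SE 0.56, p = 0.00318, adjusted p = 0.815), and at 0.187, 0.55 and 0.317 and 2.14, 1.88 and 1.32 CPM at 10 ng/ml. Akr1c18, which inactivates progesterone, was at 0.288, 0.234 and 0.137 CPM and 0.362, 0.279 and 0.712 CPM at 1 ng/ml (log2 change 1.03, SE 0.57, p = 0.0869). Its FSH24 value was highest in library 6 (log2 change 0.53 without it), and the groups overlapped. Among the largest falls, Slc38a3, a glutamine transporter, was at 32.5, 15.3 and 27.4 CPM and 27, 16 and 11.9 CPM at 1 ng/ml, also overlapping (log2 change -0.46, and -0.22 without library 6). Dgkb, a diacylglycerol kinase, was at 1.39, 1.31 and 1.46 CPM and 1.14, 1.67 and 1.02 CPM at 1 ng/ml and at 1.78, 1.56 and 0.904 and 0.238, 0.198 and 0.329 CPM at 10 ng/ml.

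Gene lists were read by the roles of their members. Over the 34 lists with a tested member, 542 genes were tested, 0 were called and 37 (6.83%) had an unadjusted p under 0.05, against 5.98% of all genes. The median log2 change of all genes was 0.00. Of the 20 genes of the FSH receptor and its cyclic AMP transducers, 9 were above 0 and the median was -0.03 (-0.00 without library 6). Fshr, the receptor itself, was at 25.9, 31.1 and 18.4 CPM in untreated libraries and 24.5, 32.3 and 17.3 CPM with FSH24 (log2 change -0.02, 95% interval -0.57 to 0.52), and its libraries ranked in the same order of numbers in both groups. The lowest p-values of the list were those of Arrb2, an arrestin that uncouples the receptor, at 27.3, 29.5 and 26.4 and 23.2, 24.6 and 23.2 CPM (log2 change -0.23, p = 0.025), and of Adcy6, an adenylyl cyclase, at 142, 153 and 143 and 133, 128 and 139 CPM (log2 change -0.13, p = 0.0371). Both were lower in every FSH24 library than in any untreated one, and neither passed the adjustment. Of 14 phosphodiesterases that break down cyclic nucleotides, 4 were above 0, with a median of -0.06 (-0.16 without library 6). The one with a p under 0.05 was Pde8a, a cyclic AMP phosphodiesterase, at 62.8, 58.7 and 59.7 and 63.1, 69.6 and 68.2 CPM (log2 change 0.15, p = 0.0304).

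The early-response genes, transcription factors that cyclic AMP and growth factors switch on within minutes to hours, had a median of -0.16 over 19 tested, with 13 below 0. Egr3 was at 4.27, 2.01 and 1.64 CPM and 1.04, 1.07 and 1.69 CPM, Egr2 at 11.5, 5.57 and 4.15 and 4.55, 5.11 and 3.16 CPM and Nr4a1 at 31.8, 23 and 21.1 and 19.6, 21.4 and 15.9 CPM, in untreated and FSH24 libraries. Untreated library 1 was the highest of the 6 in all 3 genes. Their unadjusted p-values were 0.0369, 0.0482 and 0.0515.

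The 18 classical FSH-induced granulosa genes had a median of -0.03 at 1 ng/ml, with 8 above 0 and 0 at a p under 0.05. The sign of the median turned without library 6 (0.09), the library with the lowest granulosa marker sum. At 10 ng/ml the median was 0.41, and 5 rose and 1 fell, against 5.12% and 3.3% of all genes. Cyp19a1, the aromatase that makes estrogen, was at 11.4, 7.96 and 7.21 CPM in untreated and 11.1, 9.28 and 5.52 CPM in FSH24 libraries (log2 change -0.04, 95% interval -0.84 to 0.76). Star, which carries cholesterol into mitochondria, was at 9.69, 6.56 and 8.21 CPM and 11.1, 8.63 and 9.65 CPM (log2 change 0.27, SE 0.24, p = 0.285), and rose by 1.03 at 10 ng/ml (SE 0.24, adjusted p = 0.0107). Lhcgr, the receptor for luteinizing hormone, was at 7.15, 0.937 and 2.23 CPM and 5.85, 1.67 and 1.56 CPM, with library 1 highest in both groups. None of the 3 genes separated the groups at 1 ng/ml.

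Of 11 genes of inhibin, activin and follistatin, 3 were above 0. Inha, the inhibin alpha subunit, was at 3672, 3017 and 2947 CPM and 3688, 3318 and 2288 CPM, and Inhba, the activin beta-A subunit, at 57.5, 44.1 and 50.3 and 40.9, 53 and 48.8 CPM in untreated and FSH24 libraries. Inhbb, the beta-B subunit, was at 195, 151 and 102 CPM and 292, 202 and 160.0 CPM. The groups overlapped, and its log2 change was 0.54 (SE 0.51, p = 0.304). Of 14 granulosa identity genes, 5 were above 0 and the median was -0.02, which turned to 0.09 without library 6. Amh, anti-Mullerian hormone, was at 789.7, 907 and 683 CPM and 806, 949 and 601 CPM (log2 change -0.01, 95% interval -0.40 to 0.37). Foxl2, a forkhead factor that maintains granulosa identity, was at 364, 351 and 318 CPM and 359, 379.8 and 321 CPM (log2 change 0.04), and rose by 0.43 at 10 ng/ml (adjusted p = 0.00653). Gata4, a zinc-finger factor of the gonad, was at 377, 352 and 343 and 379, 382 and 357 CPM, and its dose difference had an adjusted p of 0.0409 but was called in only 5 of 17 alternatives (highest adjusted p 0.154).

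No oocyte gene passed the test. The 25 oocyte markers had a median of -0.01, with 11 above 0 and 0 at a p under 0.05. Gdf9, a growth factor that the oocyte sends to granulosa cells, was at 960.5, 1076 and 1094 CPM and 1033, 974 and 1075 CPM (log2 change -0.02, 95% interval -0.18 to 0.14). Its partner Bmp15 was at 463, 441 and 401 CPM and 433, 389 and 417 CPM (log2 change -0.07, 95% interval -0.30 to 0.15). Kit, the receptor of the KIT ligand, was at 149, 168 and 167 CPM and 148, 139.6 and 160.3 CPM. The groups overlapped in all 3 genes, and the intervals of Gdf9 and Bmp15 lay within 2-fold. Of 11 meiotic arrest genes, 1 had a p under 0.05. Nppc, the natriuretic peptide precursor by which granulosa cells hold the oocyte in arrest, was at 13, 10.3 and 7.98 CPM and 13, 14.5 and 16.9 CPM (log2 change 0.51, SE 0.19, p = 0.0147, adjusted p = 0.815). Its FSH24 value was highest in library 6, and the log2 change was 0.40 (p = 0.0700) without that library.

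Genes of contact between the cells of the follicle, the subject named in the title of the series, gave 0 calls. Gja1, the connexin of granulosa gap junctions, was at 2416, 2097 and 2195 CPM and 2337, 2225 and 1900.5 CPM (log2 change -0.05, 95% interval -0.23 to 0.12). Gja4, the connexin between oocyte and granulosa cells, was at 136, 167 and 138 CPM and 143, 136 and 138 CPM (log2 change -0.08, 95% interval -0.31 to 0.14). The 9 gap junction genes had a median of -0.07, the 18 cell-cell adhesion genes of -0.06, the 20 integrin and focal adhesion genes and the 14 genes of transzonal projections of -0.03 each, and the 20 matrix genes of -0.08. Projections are the thin processes that granulosa cells extend to the oocyte. Of the 14 projection genes, 3 had an unadjusted p under 0.05, all with lower estimates, against 2.74% of all genes lower at that p. Diaph1, a formin that builds actin filaments, was at 159, 183 and 187 CPM and 151, 147 and 164 CPM (log2 change -0.19, p = 0.00837). Myo10, a motor of filopodia, was at 638, 771 and 696 CPM and 616, 665 and 565 CPM (p = 0.0234), and Daam1, a formin, at 87.3, 111 and 99.8 and 88.8, 76.9 and 93.6 CPM (p = 0.0488). The FSH24 values overlapped the untreated ones in each of these genes, by 1 library in Diaph1 and Myo10 and by 2 in Daam1. The adhesion genes with a p under 0.05 were Pkp4, a plakophilin-like catenin, at 115, 116 and 122 and 111, 106 and 96.6 CPM, and Afdn, a nectin-binding scaffold, at 257, 279.7 and 294 and 249, 234 and 258 CPM. In the focal adhesions, Tln1, the talin that activates integrins, was at 411, 493 and 500.2 CPM and 401, 385 and 412 CPM (log2 change -0.23, p = 0.0281). In the matrix, Fn1, fibronectin, was at 487, 510.4 and 509 CPM and 377, 483 and 349 CPM (log2 change -0.32, p = 0.0394), with the groups apart. Without FSH24 library 6 the log2 change of Fn1 was -0.22 (p = 0.163). Lama5, a laminin chain, was at 63.7, 83.6 and 78.4 CPM and 56.5, 57.7 and 67.1 CPM (p = 0.0154), and Col8a1, a short-chain collagen, had the opposite sign at 43.9, 57.5 and 31.6 and 53.2, 62.1 and 68.5 CPM (p = 0.0166). Their adjusted p-values were 0.815 each. Without FSH24 library 6 the log2 change was -0.40 for Lama5 and 0.38 for Col8a1 (p = 0.0703 for Col8a1). Col8a1 rose by 1.61 at 10 ng/ml, and its dose difference (adjusted p = 0.0235) was called in 11 of 17 alternatives, with an adjusted p of 0.0739 without FSH24 library 4 at 10 ng/ml.

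The genes of cholesterol synthesis and uptake had positive estimates in 19 of 23 cases at 1 ng/ml, against 50.4% of all genes, with a median of 0.06. At 10 ng/ml 19 of the 23 rose, with a median of 0.55, against 5.12% of all genes, and 9 were called for the dose difference in that direction, against 1.21%. Mvk, mevalonate kinase, was at 17.1, 17 and 18.2 CPM and 18, 23.2 and 23.7 CPM at 1 ng/ml (log2 change 0.31, p = 0.00449), with FSH24 library 1 inside the untreated range.

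The estimates of most ribosomal protein genes had opposite signs at the 2 doses. At 1 ng/ml 76 of 86 were above 0, with a median of 0.13 (0.18 without library 6), against 50.4% of all genes above 0. Of the 86, 5 had a p under 0.05, all higher, against 3.23% of all genes, and 0 were called. At 10 ng/ml 70 of the 86 fell, with a median of -0.59, against 3.3% of all genes, and 54 were called for the dose difference in that direction, against 1.24%. Rpl36, of the large subunit, was at 229.6, 219 and 192 CPM in untreated and 255, 270.3 and 225 CPM in FSH24 libraries at 1 ng/ml (log2 change 0.23, SE 0.09, p = 0.0201), and at 251, 205 and 233 and 146, 153 and 135 CPM at 10 ng/ml. Rps21, of the small subunit, was at 172, 146 and 148 CPM and 178, 194 and 167 CPM at 1 ng/ml (p = 0.0333) and fell at 10 ng/ml (log2 change -0.60, adjusted p = 0.000375). The list as a whole summed to 27272, 23630.4 and 24228 CPM in untreated libraries and 27094, 29069.5 and 25675 CPM with FSH24 at 1 ng/ml, which overlapped. Between FSH24 and FSH21 at 1 ng/ml the median of the 86 genes was 0.36, higher with FSH24, with 0 called. Many ribosomal protein genes have near-identical processed copies, so how reads were shared among copies is uncertain.

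The nuclear genes of the respiratory chain held the most members at a p under 0.05 for their number, 6 of 20, all higher, against 3.23% of all genes. Of the 20, 18 were above 0 with a median of 0.12 (0.18 without library 6), and at 10 ng/ml the median was -0.01. The list summed to 2650, 2443 and 2430 CPM in untreated libraries and 2657, 2834 and 2535 CPM with FSH24, which overlapped. The untreated libraries 2, 3 and 4 held 2628, 2403 and 2481 CPM. Cox7a2, a subunit of cytochrome oxidase, was at 44.8, 42.1 and 37.3 CPM and 50.7, 49.1 and 46 CPM (log2 change 0.23, SE 0.08, p = 0.0135). Uqcrb, a subunit of complex III, was at 42.3, 42.5 and 41.7 CPM and 46.2, 53.7 and 46.9 CPM (log2 change 0.21, p = 0.0191). In both the groups did not overlap, though the untreated libraries 2, 3 and 4 held 46.9, 38.9 and 44.3 CPM of Uqcrb, overlapping its FSH24 values. Sdhb, of complex II, was at 47.8, 43.3 and 50.0 CPM and 54.3, 57.3 and 48.8 CPM (p = 0.0207), with library 6 inside the untreated range. The adjusted p was 0.815 for each. Among the 13 genes of the mitochondrial genome, 10 were above 0 with a median of 0.13 (0.09 without library 6). Their sum was 18816, 13689 and 17327 CPM in untreated libraries and 16722, 18593 and 18843 CPM with FSH24.

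Glycolysis and hypoxia genes had positive estimates with overlapping groups. All 21 were above 0 with a median of 0.51 (0.48 without library 6), yet 0 had a p under 0.05. Their summed level was 4443, 2676 and 2732 CPM in untreated libraries and 5600.4, 3626 and 4805 CPM with FSH24. The groups overlapped, and library 1 was the highest of both groups. The untreated libraries 2, 3 and 4 held 6718, 4063 and 5386 CPM, which covered the FSH24 range at 1 ng/ml apart from its lowest library. Vegfa, the vascular growth factor induced by low oxygen, which was picked after its values were seen, was at 142, 33.4 and 40.5 CPM and 229, 60.5 and 129 CPM (log2 change 0.96, SE 0.94, p = 0.327). Pgam1, a glycolytic mutase, was at 314, 198 and 201 CPM and 377, 289 and 305 CPM (log2 change 0.44, p = 0.138).

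**Figure D4:**
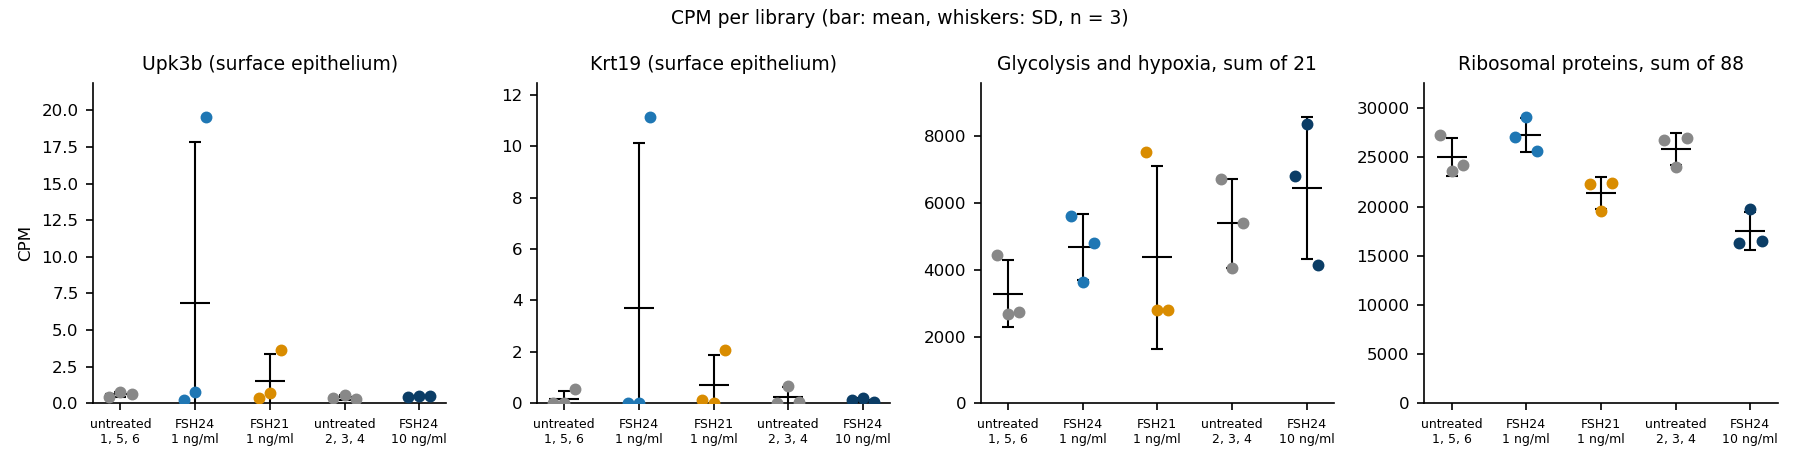
CPM per library (vertical axes, linear from 0) of the surface epithelium markers Upk3b and Krt19 and the summed CPM of the glycolysis and ribosomal protein lists, by group; points are libraries, bars means and whiskers SD (n = 3). The FSH24 libraries 1, 5 and 6 hold 0.259, 0.743 and 19.5 CPM of Upk3b in that order, and the glycolysis sums of FSH24 at 1 ng/ml (5600.4, 3626 and 4805 CPM) overlap those of the untreated libraries (4443, 2676 and 2732 CPM).

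The glutathione transferase and NRF2 target genes had a median of 0.14 over 13 tested, with 10 above 0. Gstm5, a mu-class transferase, was at 34.1, 29.6 and 32.1 CPM and 35.5, 42 and 41.3 CPM (log2 change 0.31, p = 0.00362), and Gsta4, an alpha-class transferase, at 63.9, 68.7 and 61.6 and 70.9, 80.6 and 72.6 CPM (p = 0.0126). Both were apart from the untreated libraries 1, 5 and 6, while the untreated libraries 2, 3 and 4 held 41, 38.5 and 37.9 CPM of Gstm5 and 71.5, 76.7 and 73.3 CPM of Gsta4, overlapping the FSH24 values of both. Mu-class transferases are close paralogs, so reads could be shared among them. In the insulin and FOXO list, Foxo1, a transcription factor held in check by insulin and FSH signals, was at 672, 625 and 725 CPM and 651, 552 and 475 CPM (log2 change -0.27, SE 0.12, p = 0.0429), lowest in FSH24 library 6 (log2 change -0.16 and p = 0.208 without it), and it fell at 10 ng/ml (log2 change -0.41, adjusted p = 0.0465). Igf1r, the IGF1 receptor, was at 341, 372 and 391 CPM and 329, 320.1 and 327 CPM, with the groups apart (log2 change -0.18, p = 0.0159). The untreated libraries 2, 3 and 4 held 322, 369 and 341 CPM of Igf1r, overlapping its FSH24 values. Cell cycle genes had a median of 0.02 over 20 tested (0.08 without library 6), with 0 at a p under 0.05. At 10 ng/ml it was 0.25, and 5 rose and 2 fell, against 5.12% and 3.3% of all genes. Survival genes of the BCL2 family and p53 had a median of -0.02 over 15, heat shock genes of -0.00 over 10, stress response genes of 0.04 over 16 (0.14 without library 6), and theca genes of -0.01 over 13 (0.09 without library 6).

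Markers of other cells rested on library 6 in part. The surface epithelium list had a median of 2.33 over 6 genes tested, and -0.46 without library 6. The 8 endothelial markers tested were all above 0 with a median of 0.31, and 0.13 without library 6. Kdr, an endothelial receptor of VEGF, was at 2.54, 0.89 and 1 CPM and 2.28, 0.789 and 4.98 CPM, highest in library 6 (log2 change 0.86, and 0.05 without that library). The stroma and smooth muscle list had a median of 0.08 over 13, and -0.03 without library 6. Within it Des, desmin, was at 3.45, 3.09 and 3.65 CPM and 5.28, 4.73 and 4.63 CPM, with the groups apart (log2 change 0.52, SE 0.18, p = 0.00945, adjusted p = 0.815), while the untreated libraries 2, 3 and 4 held 4.26, 5.09 and 5.02 CPM.

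**Figure D5:**
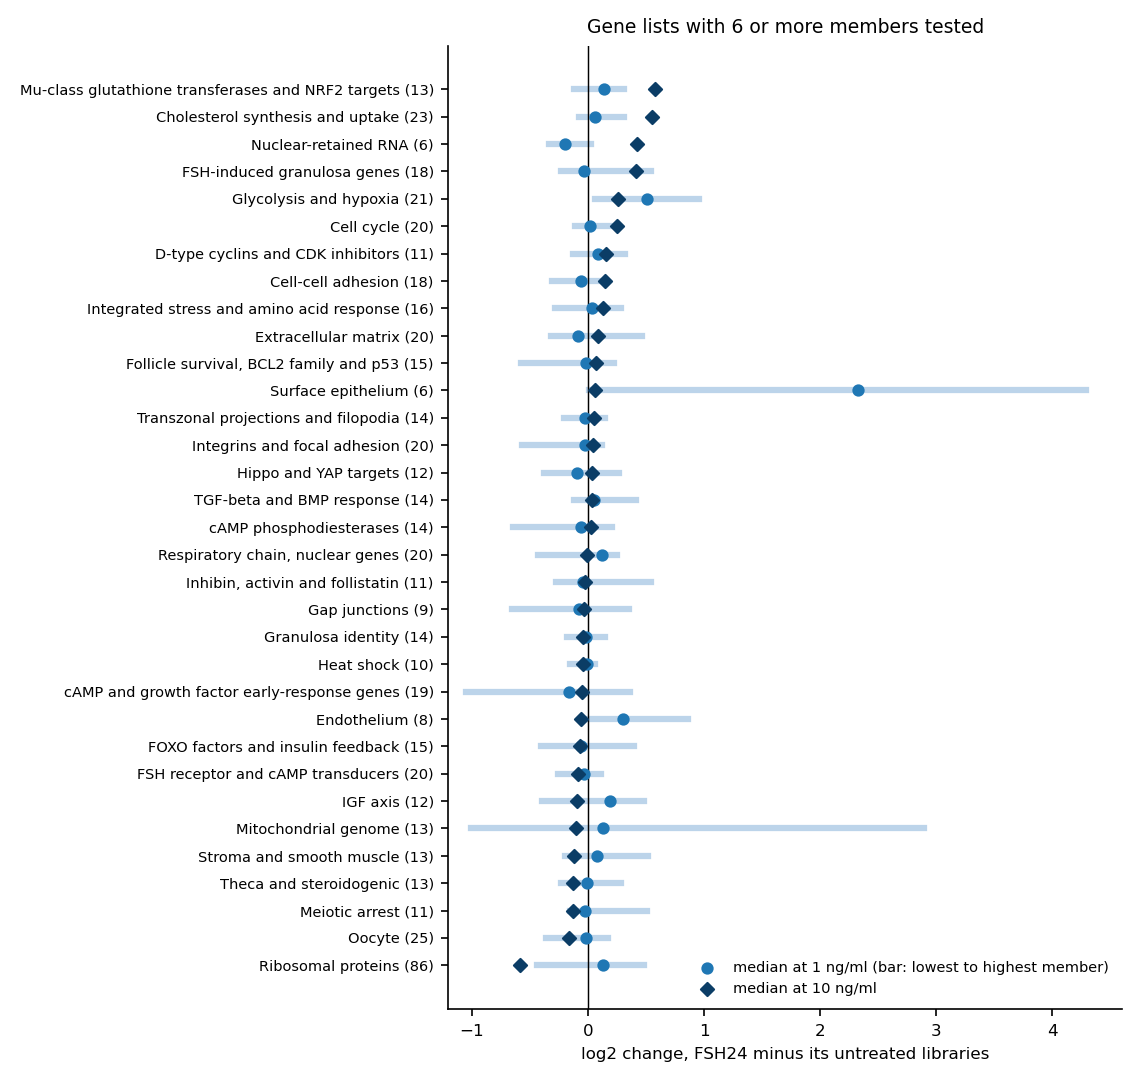
Median log2 change of each gene list with 6 or more tested members (number in brackets) with FSH24 at 1 ng/ml (circles, with bars from the lowest to the highest member) and at 10 ng/ml (diamonds), each against its own untreated libraries. At 1 ng/ml the ribosomal protein median is 0.13 and that of cholesterol synthesis 0.06, against -0.59 and 0.55 at 10 ng/ml, and the surface epithelium median of 2.33 rests on FSH24 library 6.

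A few features were at 0 in whole groups. B430305J03Rik held 28, 203 and 61 counts in the untreated libraries 1, 5 and 6 and 0 in all 15 other libraries, so that it was at least 96.1-fold lower with FSH24 against a floor of 3 counts over the group (edgeR adjusted p = 0.815). Gm10240 held 337, 216 and 104 counts in the untreated libraries and 0 in the 3 FSH24 libraries, at least 216-fold lower against the same floor, with a DESeq2 adjusted p of 0.0161 and an edgeR adjusted p of 0.815. It was also at 0 in 8 of the other 12 libraries, the untreated libraries 3 and 4 among them. Gm6087 went the other way, with 0 counts in the untreated libraries and 27, 17 and 51 with FSH24, while the untreated libraries 2, 3 and 4 held 0, 19 and 16. The mitochondrial gene mt-Co3 was near 0 in single libraries and not in a whole group. It was at 0.0959, 0.0937 and 89.6 CPM in untreated and 44.1, 427 and 199.5 CPM in FSH24 libraries (log2 change 2.90, SE 1.64, p = 0.103). The untreated libraries 1 and 5 held 2 counts each, as did FSH21 library 6 at 1 ng/ml. How the authors' counting divided reads shared with copies of these features was not given.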

How the data were processed

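RNA from cultured follicles (50 ng per library, NuGEN Universal Plus mRNA-seq kit, per the labels) was sequenced in 18 libraries on 4 lanes each. The authors deposited estimated counts per gene, not normalized, 1 column per library; 33.9% of non-zero values were not whole and were rounded here. The tools listed, per the submitters' processing notes and without their roles, were STAR 2.7, FastQC and bcl2fastq, with the mm10 build. Which tool counted the reads, on which annotation and with which strand setting, is not given in the sources used here. Of 56691 genes, 36282 had a count and 18727 passed edgeR's filterByExpr (minimum count 10, by group). Totals were 17513000 to 22509800 counts. All 18 libraries were fitted with edgeR 4.0.16 (R 4.3.3; TMM scaling, robust quasi-likelihood F test, 6 groups, no block), with Benjamini-Hochberg adjustment over all genes and a threshold of 0.05. The common biological coefficient of variation was 0.135. DESeq2 1.42.0, RLE scaling, other filters, a replicate block, other control sets and leaving out each library were alternatives. Binomial intervals are exact (95%). As a check for a library deposited more than once, replicates were compared with counting noise, and all pairs differed by more (9.35 to 23.2 times the Poisson variance). Gene positions are from GENCODE M21 (mm10) and promoters from RefSeq.

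The members, gene lists and tests were chosen with earlier results of these data known. Named genes were the 24 with the lowest p at 1 ng/ml and a mean of 1 CPM or more in either group, since 0 were called; the 10 largest rises and 10 largest falls among genes called at 10 ng/ml; up to 3 genes per list with the lowest p; 13 set genes of the follicle (such as Kitl, Fshr and Gdf9); and up to 8 genes called for each difference. Some genes chosen by these rules are not reported here. The numbers 1, 5 and 6 were not taken as pairs, since the correlation of same-numbered libraries was 0.126, 0.148 and 0.0496 and not above 0.1 in each. What the p-values measure is the spread between libraries labelled as biological replicates.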

Additional observations from a re-analysis of the deposited data

Results flagged for a closer look

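The response to FSH24 differed between 1 and 10 ng/ml in 458 genes by edgeR's test of the difference itself. Itga6 and Ank3, picked after their values were seen, were among them and are left out of the list below. Both kept the call in all 17 alternatives. Among the genes reported here, the adjusted p of that difference was 1.23e-06 for Kitl, 0.00018 for Cnnm1, 0.00028 for Cbfa2t3, 0.000882 for Sema3g, 0.0011 for Rpl36, 0.0028 for Rps21, 0.00391 for Ifitm1, 0.0112 for Impdh2, 0.0123 for Cyp4f14, 0.0156 for Rps14, 0.0235 for Col8a1, 0.0268 for Gm9913, 0.0274 for 4933431K23Rik, 0.0279 for Trmt112, 0.0300 for Ddx43, 0.0325 for Ankrd55, 0.0327 for Gm9795, 0.0405 for H2bc9, 0.0409 for Gata4, 0.0418 for Gm6087 and 0.0494 for Pramel30. The call was kept in 11 of 17 alternatives for Col8a1 and Trmt112, in 5 of 17 for Gata4, in 8 of 17 for 4933431K23Rik, in 8 of 16 for Gm9913, in 6 of 16 for H2bc9, in 7 of 15 for Ankrd55, in 6 of 15 for Gm9795 and Ddx43, in 2 of 15 for Pramel30 and Gm6087, and in every alternative that gave a value for the other genes. For Cyp4f14, Gm9795, Ankrd55, Gm9913, Pramel30, Ddx43, H2bc9 and Gm6087 the counts are low, so the size of the difference is not given. Cyp4f14 held 4, 8 and 5 counts in the untreated libraries 1, 5 and 6, 1, 0 and 4 with FSH24 at 1 ng/ml, 0, 0 and 1 in the untreated libraries 2, 3 and 4, and 12, 12 and 10 with FSH24 at 10 ng/ml. Ddx43 held 8, 7 and 9 counts in the untreated libraries 1, 5 and 6 and 0, 0 and 2 with FSH24 at 1 ng/ml.

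At 1 ng/ml, FSH24 and FSH21 differed in 2 genes by the test of the difference, Kitl (adjusted p = 0.0211) and Cbfa2t3 (adjusted p = 0.0215). Groups of 3 libraries are too small for the search for single outlying samples.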

How the results depend on the processing

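For FSH24 at 1 ng/ml against untreated follicles the count of called genes was 0 with RLE scaling, without a filter, with at least 1 CPM in 3 libraries, with only the 6 libraries, with all 6 untreated libraries as 1 control and with the replicate block over 18 libraries, where 1802 genes had an unadjusted p under 0.05 and the lowest adjusted p was 0.0616. DESeq2 called 1. The replicate block within the 6 libraries called 7, of which Inhbb (0.55, adjusted p = 0.0163), Cyp2s1 (0.57, adjusted p = 0.00591) and Gm12918 (0.65, adjusted p = 0.00378) had counts in every library, and Gm6087, B430305J03Rik, Gm10240 and Gm43064 were at 0 in one group. Leaving out 1 library gave 0 to 1 calls, the 1 being 2210418O10Rik without FSH24 library 5 (adjusted p = 0.0486), and 686 (without untreated library 6) to 1766 (without untreated library 1) genes at an unadjusted p under 0.05. The count of called list members was 0 with RLE scaling, with the replicate block over 18 libraries and when 1 library was left out. The block within the 6 libraries was not run for that count and called a list member, Inhbb.

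FSH24 against FSH21 at 1 ng/ml gave 2 calls, 204 with DESeq2 (which gave no adjusted p for 7988 genes), 65 without a filter, 177 with the replicate block and 0 to 7 when 1 library was left out: 0 without FSH21 library 1 or 5 or FSH24 library 5 or 6, 4 without FSH24 library 1 and 7 without FSH21 library 6. The dose difference gave 458 calls, 816 with DESeq2, 1180 with the replicate block and 217 (without FSH24 10 ng/ml library 4) to 517 when 1 library was left out; untreated libraries 4 (236), 5 (218), 6 (282) and 2 (300), FSH24 10 ng/ml library 2 (302) and FSH24 1 ng/ml library 5 (291) each moved it by over 1.5 times. The share of genes higher at 10 ng/ml that were above 0 at 1 ng/ml was 56.9% with the replicate block. It was 56.3% to 66.6% when 1 library was left out, and that of the lower genes below 0 was 42.9% to 60.8%. The cause of these shifts was not tested. Same-numbered libraries correlated more than others (-0.117 to -0.011) in their deviations, a hint from the data and not from the design. With 3 libraries a group the 95% interval of the log2 change reached 0.19 to either side in the median gene at 10 CPM or more and 1.29 in the median gene under 1 CPM, which limits the size of change that could be detected.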
